A study of Mus musculus with 2 samples.

Results

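The miR-23, miR-27 and miR-24 microRNAs (miRNAs) of the mouse are made from a pair of paralogous clusters, each a short run of hairpins read from 1 strand. Mir23a, Mir27a and Mir24-2 lie on chromosome 8, and Mir23b and Mir27b lie on chromosome 13. These 5 genes were chosen by name and position, with no rule on their level, from the 1973 miRNA genes of the count tables. Earlier results of these data were known when they were chosen. The third hairpin of the chromosome 13 cluster, Mir24-1, was not analysed here as a gene of its own.

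The series profiled miRNAs in hearts of mouse embryos at embryonic day 14.5 by small RNA sequencing. Both libraries form 1 group: strain B6NCrl, whole heart tissue, no treatment and no altered allele named in the labels. They are numbered as biological replicates 1 and 2 and were collected on 15 and 17 July 2014. The labels describe each as a single heart from 1 pup, yet give the sex as pooled male and female, and do not settle which holds. Both libraries carry the same pup and pregnancy numbers despite the different days, so whether they come from separate litters is not settled either. Replicate 1 had 4327424 and replicate 2 had 3839984 reads on the strand of a miRNA gene. Levels are given in CPM, counts scaled to the same total of those reads in each library, as mean ± SD (n = 2). With 1 group there was no difference between conditions to test. Every SD measures the spread between these 2 libraries, which may be partly technical.

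A miRNA guides Argonaute proteins to messenger RNAs, mostly by pairing of its seed (bases 2 to 8 from the 5′ end) with sites in the target. Each hairpin is cut to a short duplex whose arms are named 5p and 3p, and one arm usually prevails. The miR-23/27/24 clusters are known from blood vessels, where their miRNAs act on endothelial growth and sprouting, and miR-27 is also known from fat cell differentiation. The hairpins of a cluster are cut from 1 primary transcript, yet mature levels can differ through processing, stability and how reads are assigned.

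The mature sequences are shown because they set which reads can be told apart between the clusters. Each is written 5′ to 3′ with its seed in capitals, as RefSeq gives it on build GRCm38.p6.
miR-23a-3p: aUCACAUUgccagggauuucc
miR-27a-3p: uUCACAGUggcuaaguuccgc
miR-27b-3p: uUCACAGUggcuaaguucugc
miR-24-3p: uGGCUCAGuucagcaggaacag
miR-24-2-5p: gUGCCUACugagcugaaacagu
miR-24-1-5p: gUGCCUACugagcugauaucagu
The 3p miRNAs had the same seed in both clusters for miR-27 (UCACAGU) and miR-24 (GGCUCAG), and miR-23a-3p has the seed UCACAUU. The mature miR-23b-3p was not used here, and the Mir23b hairpin was compared in its place. The 3p forms of miR-27a and miR-27b, each 21 bases, differed by a single substitution, C19U, counted from the 5′ end with the miR-27a base given before the position. miR-24-3p was identical over all 22 bases at Mir24-2 and Mir24-1. The 5p arms of the miR-24 genes had their first 16 bases in common and differed by an edit distance of 2.

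For the miR-23 pair the hairpins are shown, since both hold a stretch close to miR-23a-3p. Capitals mark miR-23a-3p in the Mir23a hairpin and its best ungapped match in the Mir23b hairpin, at bases 46 to 66 of each.
Mir23a: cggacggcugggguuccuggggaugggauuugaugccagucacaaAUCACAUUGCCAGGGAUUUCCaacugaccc
Mir23b: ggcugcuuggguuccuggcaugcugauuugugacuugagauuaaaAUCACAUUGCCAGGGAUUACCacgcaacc
The marked stretches matched at 20 of 21 bases and differed by U19A, with the Mir23a base given first. The miR-23 and miR-27 pairs therefore each carried 1 difference, at the same position 19, behind 18 identical bases. The 5p arms were further apart, with an edit distance of 5 for miR-23 and 5 for miR-27, and did not have a seed in common. The longest stretch shared between hairpins was 20 bases for Mir23a with Mir23b, 20 for Mir27a with Mir27b and 28 for Mir24-2 with Mir24-1. Among the 1005 hairpins of the RefSeq table, the longest stretch shared with a hairpin outside the clusters was 10 to 13 bases. A gene count does not say which arm its reads came from.

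The chromosome 8 cluster spanned 404 bases on the plus strand of mm10. Mir23a lay at chr8:84208518-84208592, Mir27a at chr8:84208672-84208758 and Mir24-2 at chr8:84208815-84208921. Gaps of 79 and 56 bases separated them. In GENCODE M21, Mir23a and Mir27a overlapped no other annotated gene. The last 2 bases of Mir24-2 overlapped the exon of the noncoding RNA gene Gm26532, and Mir3074-2 is annotated on its opposite strand. The chromosome 13 cluster spanned 792 bases including Mir24-1, also on the plus strand. Mir23b lay at chr13:63300484-63300557 and Mir27b at chr13:63300712-63300784, 154 bases apart. Both lay within 2010111I01Rik, a protein-coding gene read on the same strand, and within Fancc on the opposite strand. Mir23b overlapped no exon of either. Mir27b lay wholly within an exon, annotated as untranslated, of 1 transcript of 2010111I01Rik marked for nonsense-mediated decay, and in an intron of its other transcripts that span it. Mir24-1 followed 423 bases after Mir27b.

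The miR-23 genes held nearly all counts of the clusters, which hold only reads placed at 1 position. Full reads of miR-24-3p match both miR-24 loci and are in none of these counts. Mir23a had 97647 counts in replicate 1 and 88180 in replicate 2, which is 22565 and 22964 CPM (22764 ± 282). Mir23b had 91546 and 73285 counts, or 21155 and 19085 CPM (20120 ± 1464). Mir23a was higher in both libraries, the ranges did not overlap, and the genes ranked 13 and 14 of 1973 by mean level. Mir27b had 5374 and 7066 counts, or 1242 and 1840 CPM (1541 ± 423), at rank 69. Mir27a had 1200 and 1481 counts, or 277 and 386 CPM (331 ± 76.6), at rank 118. Mir24-2 had 1100 and 1112 counts, or 254 and 290 CPM (272 ± 25.0), at rank 124. The order was the same in both libraries, but the ranges of Mir27a and Mir24-2 overlapped. Mature miRNAs of these genes are 21 to 22 bases long, so their counts were not divided by length.

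**Figure D1:**
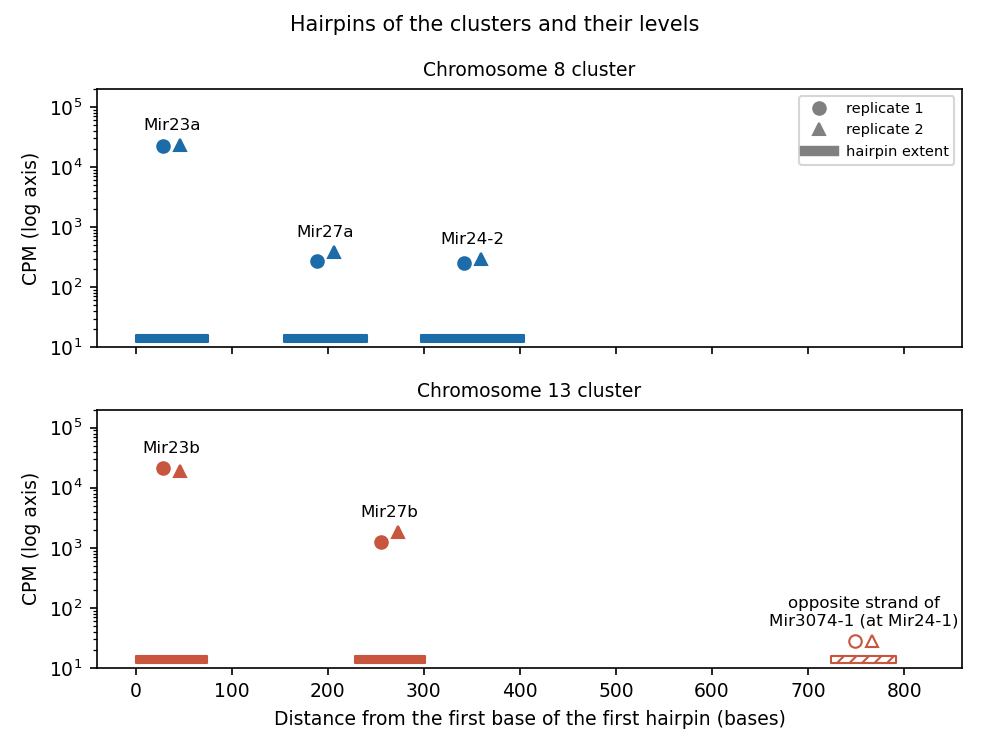
Levels in CPM (log axis) of the hairpins of the chromosome 8 cluster (top) and the chromosome 13 cluster (bottom), placed by distance in bases from the first base of the first hairpin. Circles are replicate 1, triangles replicate 2, bars the hairpins, and open symbols reads on the opposite strand of Mir3074-1, over Mir24-1. The miR-23 values lie between 19085 and 22964 CPM, and the highest of the others is Mir27b at 1840.

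All 5 genes were detected, meaning a count of 10 or more in both libraries, as were 17.1% of all genes. Mir23a, Mir23b and Mir27b exceeded 1000 CPM in both libraries, as did 3.85% of all genes. Together the 5 genes took 4.50% ± 0.0657 of the gene reads. The miR-23 genes made up 95.2% ± 1.23 of that sum and the miR-27 genes 4.17% ± 1.17. In the chromosome 8 cluster Mir23a gave 97.4% ± 0.393 of the counts, Mir27a 1.42% ± 0.305 and Mir24-2 1.16% ± 0.0880. In the chromosome 13 cluster Mir23b gave 92.8% ± 2.30 and Mir27b 7.17% ± 2.30. In both clusters the hairpin nearest the 5′ end had the highest count.

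The clusters were nearly level as sums. The chromosome 8 cluster summed to 23096 CPM in replicate 1 and 23639 in replicate 2, and the chromosome 13 cluster to 22397 and 20925. Their ratio was 1.08 ± 0.0696, with chromosome 8 higher in both libraries. It was 1.07 ± 0.0679 over the miR-23 and miR-27 genes alone.

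The balance between the clusters turned between the miR-23 and the miR-27 pair. Mir23a stood 1.07-fold above Mir23b in replicate 1 (95% exact counting interval 1.06 to 1.08) and 1.20-fold above it in replicate 2 (1.19 to 1.22). For miR-27 the chromosome 13 gene led: Mir27b stood 4.48-fold above Mir27a in replicate 1 (4.21 to 4.77) and 4.77-fold above it in replicate 2 (4.51 to 5.05). Such ratios compare counts within 1 library and do not depend on the scaling. The intervals reflect error in counting reads alone. No molecular identifiers mark single molecules in these reads, so copies of 1 molecule count separately and the intervals may be too narrow. Both libraries showed each direction, and the mean ratios were 1.13 ± 0.0966 and 4.62 ± 0.207.

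Within a cluster the step from miR-23 to miR-27 was large and differed between the libraries. Mir23a stood 81.4-fold above Mir27a in replicate 1 (76.9 to 86.2) and 59.5-fold in replicate 2 (56.6 to 62.7). Mir23b stood 17.0-fold above Mir27b in replicate 1 (16.6 to 17.5) and 10.4-fold in replicate 2 (10.1 to 10.6). The intervals of the libraries did not overlap in either cluster. Mir27a stood 1.09-fold above Mir24-2 in replicate 1 (1.00 to 1.18) and 1.33-fold in replicate 2 (1.23 to 1.44). Over both clusters, miR-23 counts were 23.8 ± 6.99 times those of miR-27 and 159 ± 18.9 times those of Mir24-2. These are ratios of read counts between different sequences. How evenly the libraries captured each sequence was not tested, so they do not measure ratios of molecules.

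**Figure D2:**
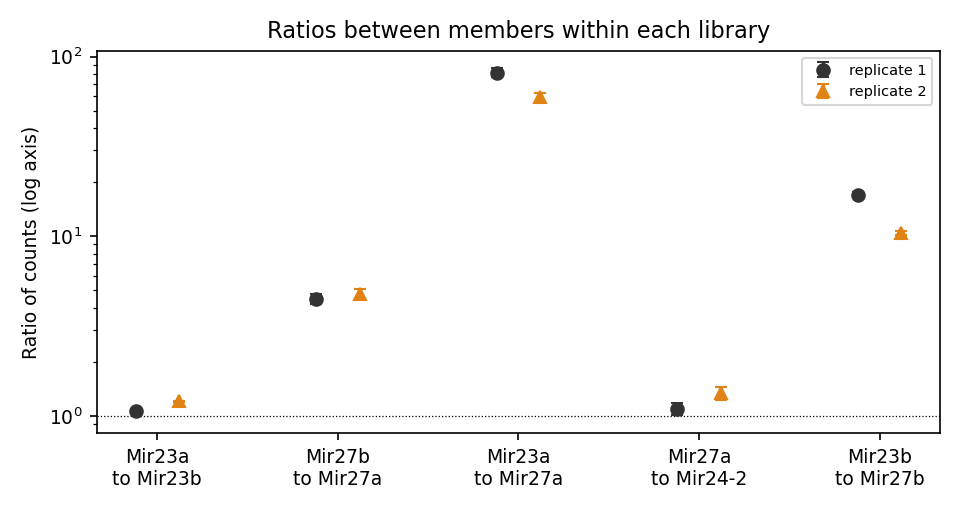
Ratio of counts between pairs of members (log axis) in replicate 1 (circles) and replicate 2 (triangles), with 95% exact counting intervals. The ratios of miR-23 to miR-27 genes are lower in replicate 2 in both clusters, from 81.4 to 59.5 and from 17.0 to 10.4.

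These ratios rest on reads placed at 1 position. Of all reads, 30.6% in replicate 1 and 30.1% in replicate 2 mapped to several places and are counted with no gene. Reads of the full miR-24-3p match both miR-24 loci and are counted at neither. Mir24-2 is under-counted by any such reads that it gave, and its level is uncertain. Reads of miR-23 or miR-27 cut short before base 19 also match both clusters. How many reads of each member were set aside in this way was not tested.

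The locus of Mir24-1 was read through the row of Mir3074-1 (chr13:63301199-63301283, minus strand), which covers all 68 bases of the Mir24-1 hairpin on the opposite strand. Mir3074-1 had 161 and 143 counts on its own strand (37.2 ± 0.0249 CPM) and 120 and 109 on the opposite strand, that of Mir24-1 (28.1 ± 0.463 CPM). Opposite-strand reads were 42.7% of its reads in replicate 1 (95% exact binomial interval 36.8 to 48.7) and 43.3% in replicate 2 (37.1 to 49.6). Over all genes this share was 4.72% and 4.58%. The 5 members had 0 opposite-strand reads in either library, except for 2 at Mir24-2 in replicate 2. Mir24-2 counts were 9.68 ± 0.732 times the reads facing Mir3074-1. The mature sequence that Mir24-2 and Mir24-1 have in common matches both loci, so its full reads are in neither of these counts. The ratio and the level on the strand of Mir24-1 therefore do not measure how much of that sequence each locus gave.

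Between the libraries the miR-27 genes differed more than the miR-23 genes. Mir27b was 1.48-fold higher in replicate 2 (1.43 to 1.54) and Mir27a 1.39-fold (1.288 to 1.502). Mir24-2 was 1.14-fold higher in replicate 2 (1.05 to 1.24). Mir23b fell to 0.902 of its level in replicate 1 (0.893 to 0.911). Mir23a was at 1.02 of it (1.01 to 1.03), a direction that turned under TMM and median-of-ratios scaling, at log2 ratios of -0.04 and -0.09. A difference of at least 1.5-fold was reached by 0 of the 5 members, against 12.8% of the 337 detected genes. The members' median log2 ratio of replicate 2 to replicate 1 was 0.19, and that of all detected genes 0.08. Median-of-ratios scaling lowered the latter by 0.11. Of the 337 genes, 41 had a larger absolute log2 ratio than Mir27b, 60 than Mir27a, 193 than Mir24-2, 224 than Mir23b and 317 than Mir23a. This background includes genes with low counts. With a minimum of 100 counts, which all 5 members passed, 12 of 231 genes (5.19%) reached 1.5-fold. Among genes of higher mean level than Mir27b, the largest absolute log2 ratio was 0.54, for Mir431, below the 0.57 of Mir27b. Mir27a was not so placed, since Mir451a, of higher mean level, was at -1.39.

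Relative to miR-23 of the same cluster, both miR-27 genes were higher in replicate 2, whatever the scaling. The ratio of Mir23a to Mir27a in replicate 2 was 0.732 of that in replicate 1 (95% log-normal counting interval 0.678 to 0.790), and that of Mir23b to Mir27b was 0.609 (0.587 to 0.632). The ratio of Mir27b to Mir27a changed by a factor of 1.07 (0.980 to 1.16), an interval that includes 1. These values compare 2 libraries and carry no test over animals. The libraries also differed in markers of other tissues. All 5 epithelial markers (Mir200a, Mir200b, Mir200c, Mir429, Mir205) were at least 1.5-fold higher in replicate 2, with a summed level of 440 CPM in replicate 1 and 863 in replicate 2. The red blood cell markers Mir451a and Mir144 summed to 1184 and 489 CPM. Mir451a passed 1.5-fold, at 1090 CPM in replicate 1 and 415 in replicate 2. Mir144 did not, at 94.3 and 73.7 CPM. Of the neuronal markers, Mir137 had 57 and 329 counts, Mir124a-1 had 0 in both libraries, and Mir9-1 was not analysed here. The part of these in the miR-27 difference was not tested. In bulk tissue, fewer cells of a type and less RNA per cell cannot be told apart.

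**Figure D3:**
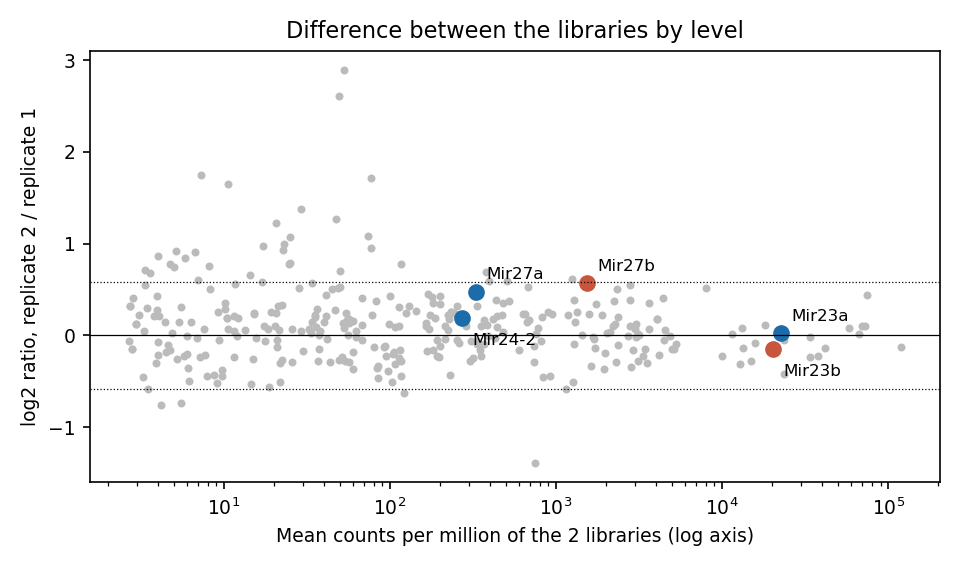
Log2 ratio of replicate 2 to replicate 1 (CPM + 1) against the mean level in CPM (log axis) for the detected genes, with the 5 members coloured by cluster (blue, chromosome 8; red, chromosome 13). Dotted lines mark 1.5-fold; Mir27b at 0.57 and Mir27a at 0.47 lie above Mir24-2 at 0.19, Mir23a at 0.03 and Mir23b at -0.15.

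Other miRNA genes are named as letter pairs in the same way as Mir23a and Mir23b, with names that differ only by a final a or b. With the miR-23 and miR-27 pairs included, 17 such pairs had both genes detected. Names with a numbered locus, such as Mir125b-1 beside Mir125a, were left out. The absolute log2 ratio (CPM + 1) of the 17 pairs ranged from 0.18 to 9.01 with a median of 2.40, and each pair had the same direction in both libraries. Mir23a and Mir23b were the closest pair at 0.18, with 0.09 in replicate 1 and 0.27 in replicate 2. Next came Mir15a and Mir15b, of the cell cycle family miR-15/16, at 0.41, and Mir10a and Mir10b of the Hox clusters at 0.56. In replicate 1 alone Mir10a and Mir10b were closer, at 0.03. Mir27a and Mir27b, at 2.21, took the sixth place, near the median. Its neighbours there were Mir148a and Mir148b at 2.31 and Mir200a and Mir200b at 2.34. The miR-23 pair thus lay among 4 pairs within 2-fold of each other, and the miR-27 pair did not.

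**Figure D4:**
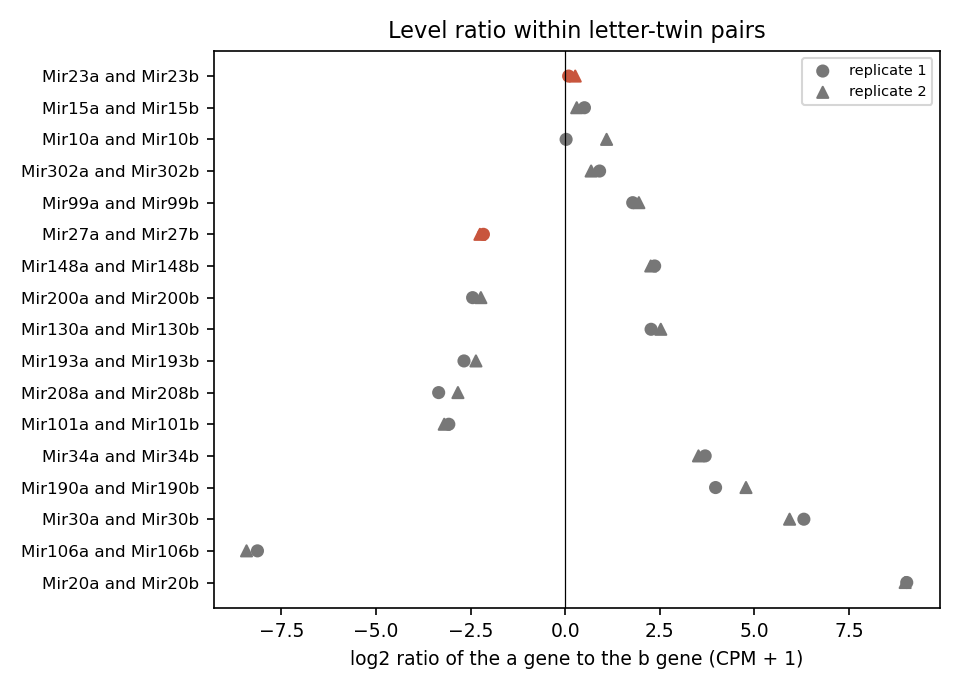
Log2 ratio of the a gene to the b gene (CPM + 1) for the 17 letter pairs detected, in replicate 1 (circles) and replicate 2 (triangles), ordered by absolute mean ratio. The miR-23 and miR-27 pairs are in red, at means of 0.18 and -2.21.

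The genes nearest each member in level were found by the summed absolute difference of log2(CPM + 1) over the 2 libraries. Nearest to Mir23a was Mir21a, a miRNA known from fibroblasts, at 0.12, followed by Mir23b at 0.36. Nearest to Mir23b were Mir130a at 0.32 and Mir23a. Mir27b lay nearest to Mir15b (0.33) and to the smooth muscle miRNA Mir145a (0.36). Mir27a lay nearest to Mir300 (0.10) and Mir186 (0.15), and Mir24-2 to Mir224 (0.09) and Mir148b (0.17). With 2 libraries this likeness describes level only.

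Other miRNAs known from vessels were set beside the members, and 17 of the 18 listed genes were matched in the tables, Mir18 and Mir92-1 through their RefSeq synonyms. All 17 were detected, as were 17.1% of all genes. Mir126a, hosted by an endothelial gene, had 69932 and 75015 CPM, and the smooth muscle miRNA Mir143 had 63272 and 85644. These 2 of the 17 lay above Mir23b in mean level. Mir17 of the proliferation-linked miR-17 cluster had 14069 and 12800 CPM, below Mir23b in both libraries. Mir221 and Mir222, which act in endothelial and smooth muscle growth, had 69.1 and 66.9 CPM and 33.3 and 33.9 CPM, below Mir24-2. The median over the 17 was 1243 CPM. Between the libraries 1 of them, Mir10a, passed 1.5-fold, against 12.8% of all detected genes. Of the 17, 10 were higher in replicate 2 and 7 lower, where 201 of all 337 detected genes were higher and 136 lower. For the 17 the counts were 9 and 8 with TMM scaling and 8 and 9 with median-of-ratios scaling.

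The tissue label was checked against heart muscle markers. The miRNAs hosted by myosin genes were abundant: Mir208b had 66314 and 66822 CPM, Mir208a had 6542 and 9382, and Mir499 had 2896 and 3149. The other 2 listed markers, Mir1a-1 with 13 and 10 counts and Mir133a-1 with 12 and 12, were near the detection minimum and below the liver marker. That marker, Mir122, had 38.4 and 44.5 CPM. The neuronal Mir124a-1 was at 0 counts in both libraries, where 3 counts would give 0.693 and 0.781 CPM. All these counts hold only reads placed at 1 position. How many reads of Mir1a-1, Mir133a-1 or Mir124a-1 mapped to several places was not tested. Low or 0 counts of these genes therefore do not show that their mature miRNAs were scarce. Which heart cells the miR-23/27/24 reads came from was not measured.

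No miRNA of the RefSeq table outside the clusters had the seed of miR-23 or miR-27 at bases 2 to 8. The miR-27 seed also stands at bases 1 to 7 of miR-128-3p, a match chosen after the data were seen. Mir128-1 had 121 and 108 CPM, and Mir128-2 had 22.4 and 14.8. The seed of miR-24-3p occurs in miR-6413, miR-6410, miR-6369 and miR-5124b, whose genes had 0 counts in both libraries.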

How the data were processed

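The authors deposited 1 table of whole-number counts per library, with columns for both strands together, the gene strand and the opposite strand. Per the labels and deposited descriptions, mm10 and GENCODE M4 were the build and annotation, with 1 table for each library. The aligner and counter were not given in the sources used here. The gene strand column was used and scaled to the sum over rows that name a gene. Reads of no gene (4.58% and 4.89%) and reads mapping to several places were left out. Symbols and positions came from GENCODE M21, on the same assembly, with 1894 of 1973 identifiers named. Sequences came from RefSeq, where all 5 members had a hairpin.

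Log2 values used a pseudocount of 1 CPM. Intervals are exact binomial ones at 95% for ratios and shares, and log-normal for the change of a ratio between libraries. Detection meant a count of 10 or more in both libraries. The named genes were the members, overlapping rows, the 2 nearest genes in level, the letter pairs nearest to each member pair, miRNAs with a member's seed, and the vessel and cell type lists. The members and lists were chosen with earlier results of these data known. Scaling factors came from edgeR 4.0.16 and DESeq2 1.42.0 (R 4.3.3). The remaining steps ran in Python 3.11.15 with scipy 1.17.1, numpy 2.4.6, pandas 2.3.3 and matplotlib 3.10.9. Ratios between libraries were also run on simulated counts with counting error alone, where 95.1% of the intervals held the true ratio. That setting has no spread between animals and no copied molecules, so it checks the code and not the fit of the intervals to these libraries. Ratios between members were not simulated. The alternatives were the unstranded column, all reads as the total, both scalings, other pseudocounts and count minimums, and each replicate left out. Mir24-2 left out and reads facing Mir3074-1 added were chosen after the data were seen.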

Additional observations from a re-analysis of the deposited data

Results flagged for a closer look

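The row of Mir3074-1 held reads on its opposite strand, a column that the levels above do not use: 120 counts in replicate 1 and 109 in replicate 2, above the 3 counts that a count of 0 allows. They lie on the strand of Mir24-1. Of the 348 rows with at least 10 unstranded counts in each library, 13 (3.74%) had over 10% of their reads on the opposite strand in both libraries, and 309 had none.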

How the results depend on the processing

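No paired analysis was possible because the series has 1 group. Of 121 alternatives over 24 results, 98 stayed within 1 SD or the counting interval of the value reported, or for counts of genes within 1.5 times, and 23 moved. With 2 libraries, leaving 1 out cannot take a level, sum or ratio beyond 1 SD of its mean. The unstranded column could hardly move ratios between members, which had almost no opposite-strand reads. Such alternatives were bound to stay, so their part of the 98 is no check of these results. With all reads of the library as the total, levels were 12055 CPM for Mir23a, 175 for Mir27a, 144 for Mir24-2, 10657 for Mir23b and 816 for Mir27b, and the clusters summed to 12375 and 11472. With the unstranded column Mir23a was 21706 CPM and its cluster 22282. The log2 ratio of replicate 2 to replicate 1 moved under TMM scaling to -0.0400 for Mir23a, -0.21 for Mir23b and 0.50 for Mir27b. Under median-of-ratios scaling it was -0.0884 for Mir23a, -0.26 for Mir23b, 0.36 for Mir27a and 0.45 for Mir27b. Of the genes past 1.5-fold, 83.7% were higher in replicate 2, against 72.1% with TMM and 61.7% with median-of-ratios scaling. With a minimum of 1 count 542 genes were detected and 156 passed 1.5-fold. With no filter these were 688 and 302, and with a minimum of 100 counts 231 and 12. None of these settings put a member past 1.5-fold. The median over letter pairs was 2.21 with a minimum of 100 counts and 2.28 with a pseudocount of 10 CPM. The miR-23 pair was no longer the closest with a minimum of 1 count or without replicate 2. Adding reads facing Mir3074-1, or leaving out Mir24-2, moved no cluster sum beyond its SD. At these depths 3 counts stand for 0.693 and 0.781 CPM.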

Other observations

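Mir24-2 was compared with other genes whose mature miRNA is made at more than 1 locus, a class defined after the data were seen. In the RefSeq table, 87 measured genes had a mature sequence identical to that of another gene, and 829 had none. Of the 87, 40 were detected, with a median of 50.8 CPM, and of the 829, 268 were detected, with a median of 117 CPM. Mir24-2 was the ninth most abundant of the 87, below Mir92-1 (1706 CPM), Mir16-1 (1622 CPM) and Mirlet7f-2 (1145 CPM), and above Mir199b (193 CPM). The most abundant gene of the other class, Mir335, had 119648 CPM.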
